A study of Mus musculus with 2 samples.

Results

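RNA-seq values of 8 transcription factors were compared between the second polar body (PB2) and the zygote of the mouse one-cell embryo. The factors are the oocyte regulators Nobox, Figla and Lhx8, the pluripotency factors Pou5f1 and Sox2, and Nr5a2, Nfya and Stat3, which act in the embryo and in many other cells. They were taken by name, and all 8 were among the 11262 genes of the table analysed here. PB2 is the small cell that the egg extrudes when it completes meiosis after fertilization. Untreated C57BL/6 embryos at the late one-cell stage were freed of the zona pellucida, PB2 was split off by trypsin and pipetting, and pooled PB2s and zygotes were each made into 1 library from amplified full-length cDNA. The values are TPM, a measure of transcript number in which gene length and library size are both divided out, so levels of different genes can be compared within a library and a difference between libraries is one of proportions. Each group had 1 library, so replicate error could not be measured, no test was run, and every difference below describes these libraries only. Depth is unknown from TPM, and in pooled samples fewer cells and less RNA per cell cannot be told apart.

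Nobox and Lhx8 are homeodomain proteins and Figla is a basic helix-loop-helix protein. All of them switch on oocyte genes in the growing follicle, and their mRNAs belong to the maternal store that the egg passes on. Pou5f1 encodes Oct4, which with the HMG-box protein Sox2 holds the inner cell mass and embryonic stem cells in the pluripotent state. Nr5a2 is an orphan nuclear receptor and Nfya the DNA-binding subunit of the CCAAT factor NF-Y, and both take part in the activation of the embryonic genome. Stat3 carries the signal of LIF-type cytokines from receptor to nucleus.

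The markers of the label were present. The 8 oocyte markers ranged from 62.7 to 18407.3 TPM in the zygote and from 310.1 to 22397.3 TPM in PB2. Of 18 cumulus and granulosa cell markers, 4 were in the table, with a summed level of 74.7 TPM in the zygote against 76.4 TPM in PB2, most of it Cyp19a1 (72.2 and 70.9 TPM), and Cyp11a1 was listed at 0 in the zygote. Of 11 sperm markers 4 were in the table, with sums of 31.4 and 41.6 TPM, and their part in the values below was not tested. Fold differences were put on a log2 scale as log2((PB2 TPM + 1)/(zygote TPM + 1)), here the log2 ratio, for the 10645 genes with at least 1 TPM in either library. The median log2 ratio of these genes was 0.21. At least 2-fold higher on that scale were 2009 genes in PB2, 18.9% of those compared, and 861 in the zygote, 8.09%. With the ratios centred on their median these counts were 1387 and 1291, so the balance of the directions rests on the scaling.

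Of the 8 factors, Pou5f1, Lhx8 and Stat3 passed 2-fold towards PB2, beside 18.9% of all genes, and 0 passed 2-fold towards the zygote, beside 8.09%. Pou5f1 and Stat3 are on the primer list of the study, whose methods describe the genes tested by PCR as chosen for higher levels in PB2 in these libraries, so that count is not independent evidence of a direction. Sox2, Nobox and Nr5a2 had higher values in PB2, and Figla and Nfya had higher values in the zygote, without passing 2-fold. Where a pair of levels follows a gene, the zygote stands first and PB2 second. All 8 passed the filter of 1 TPM, and Sox2 passed it only through PB2.
Nobox was the most abundant of the factors in both libraries, and Sox2 the least abundant. In the zygote the order of levels was Nobox, Lhx8, Nfya, Stat3, Pou5f1, Nr5a2, Figla and Sox2. In PB2 it was Nobox, Lhx8, Pou5f1, Stat3, Nfya, Nr5a2, Figla and Sox2, so Pou5f1 and Nfya changed places. Nr5a2 and Figla, next to each other in both orders, were 0.2 TPM apart in the zygote and 2.5 TPM apart in PB2, and without replicates it is not known which neighbours differ beyond the spread. Together the factors summed to 343.5 TPM in the zygote against 625.6 TPM in PB2, of which Nobox made up 65.1% and 49.9%.

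**Figure D1:**
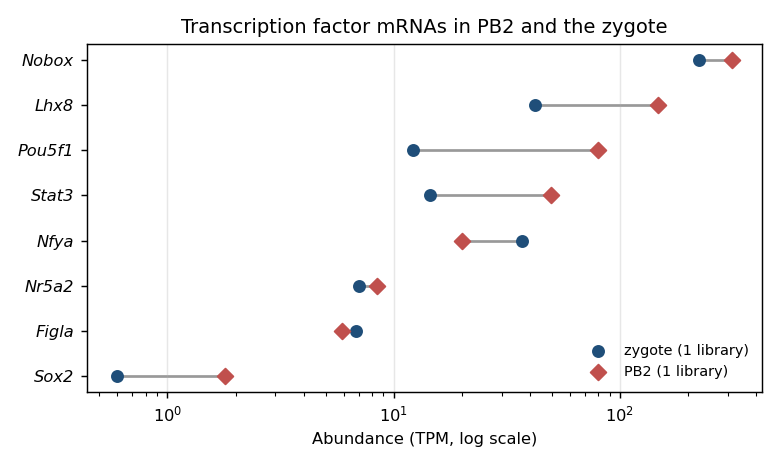
Abundance in TPM (log axis) of the 8 factors in the zygote library (circles) and the PB2 library (diamonds), ordered by the PB2 level; each point is 1 library and a line joins the points of a gene. Pou5f1 spans the widest gap, from 12.2 to 80.0 TPM, and Figla and Nr5a2 the narrowest on this log axis.

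**Figure D2:**
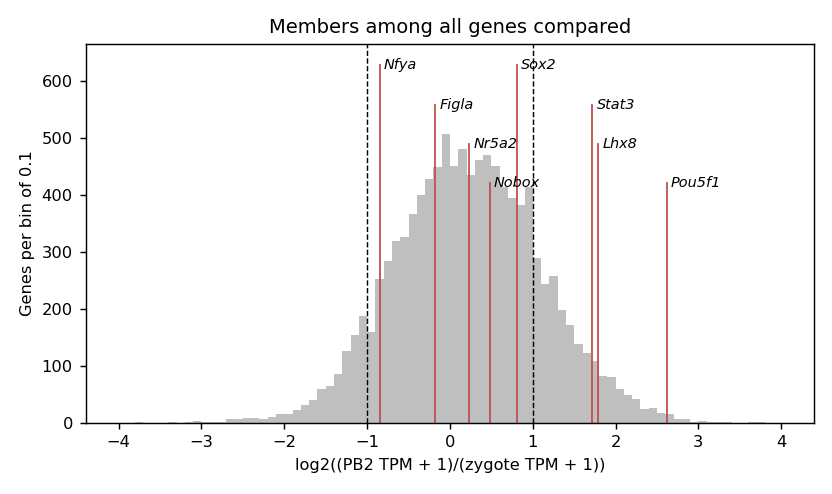
Number of genes in each bin of the log2 ratio over the 10645 genes compared (grey), with the 8 factors as vertical lines whose heights only place the names and dashed lines at 2-fold. Pou5f1, Lhx8 and Stat3 lie beyond the dashed line on the PB2 side, and Nfya is the factor nearest to the dashed line on the zygote side.

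The bases upstream of the start sites are shown for the 3 factors that passed 2-fold and for Nfya, which had the lowest log2 ratio, so that the short DNA words that these factors are known to bind can be looked for in their own promoters. The sequences are from RefSeq on GRCm38.p6, where all 8 factors had an entry, and run 5′ to 3′ on the strand of the gene. Capitals mark the CCAAT box of NF-Y (CCAAT, read as ATTGG on the other strand) and the E-box CANNTG, the word that Figla and other helix-loop-helix proteins bind. For Lhx8 and Nfya the bases nearest the start were left off because GENCODE M21 places them in exons. The last 14 bases shown for Pou5f1, which hold its marked CCAAT box, also lie in a GENCODE exon.
Pou5f1, chr17:35505782-35506031, plus strand: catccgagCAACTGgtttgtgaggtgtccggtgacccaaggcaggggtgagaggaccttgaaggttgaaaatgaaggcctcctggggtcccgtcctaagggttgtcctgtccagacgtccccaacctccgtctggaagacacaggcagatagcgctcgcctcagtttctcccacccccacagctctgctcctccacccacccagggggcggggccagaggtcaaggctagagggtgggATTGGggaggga
Lhx8, chr3:154330660-154330810, minus strand: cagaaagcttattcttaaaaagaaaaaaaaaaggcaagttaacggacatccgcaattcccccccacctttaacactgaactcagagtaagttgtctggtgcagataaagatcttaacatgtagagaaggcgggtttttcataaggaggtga
Stat3, chr11:100939541-100939790, minus strand: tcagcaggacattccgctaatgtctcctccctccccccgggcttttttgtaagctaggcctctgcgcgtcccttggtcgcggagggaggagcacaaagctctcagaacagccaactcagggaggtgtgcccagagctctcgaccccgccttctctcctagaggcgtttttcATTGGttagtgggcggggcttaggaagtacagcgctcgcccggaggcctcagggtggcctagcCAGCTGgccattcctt
Nfya, chr17:48409907-48410070, minus strand: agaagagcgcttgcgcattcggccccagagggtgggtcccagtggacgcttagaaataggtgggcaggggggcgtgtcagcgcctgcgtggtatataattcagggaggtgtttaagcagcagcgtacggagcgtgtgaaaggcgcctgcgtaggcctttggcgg
Over the 250 bases upstream of the RefSeq start, both strands searched, CCAAT was found for Pou5f1 at -12 to -8, Sox2 at -46 to -42 and Stat3 at -79 to -75, which is 3 of the 8 factors. It was found in 33.8% of all 32851 windows of that length. The E-box was found for 5 of 8, namely Nobox, Figla, Pou5f1, Nr5a2 and Stat3, and in 66.2% of all windows. The window of Figla, chr6:86016941-86017190, lies inside the gene as GENCODE M21 places it (chr6:86016171-86020996, plus strand), outside its exons. The words TTCNNNGAA (STAT proteins), AAGGTCA (Nr5a2), TAATTG (Nobox), TAATTA (homeodomains), ATTTGCAT (the Pou octamer) and ACAATG (Sox proteins) were found for 0 of 8, and in 7.02%, 4.08%, 7.17%, 4.84%, 1.6% and 10.7% of all windows. No motif searched was found for Lhx8 or Nfya. These matches describe letters only.

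Among the oocyte regulators, Nobox was measured at 223.5 TPM in the zygote against 312.0 TPM in PB2. Its value was above that of 94.8% of the genes of the table in the zygote and 96.3% in PB2. The log2 ratio was 0.48, or 0.27 above the median of all genes, and 4098 genes had a larger one. Lhx8 (ENSMUSG00000096225, chr3:154306294-154330659, minus strand) had 42.0 TPM in the zygote against 147.7 TPM in PB2. The PB2 value was 3.52 times the zygote value, and the log2 ratio of 1.79 was exceeded by 426 genes. Nobox was 5.32 times as abundant as Lhx8 in the zygote and 2.11 times in PB2, so these homeodomain mRNAs stood closer to each other in PB2. Figla was low in both libraries, with 6.8 TPM in the zygote against 5.9 TPM in PB2. Its log2 ratio of -0.18 turned to 0.25 when the trend on transcript length was removed, so no direction can be given for Figla.

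Partners and targets of these regulators did not all follow them. Ldb1, which bridges LIM-homeodomain proteins such as Lhx8 to other factors, had 27.8 TPM in the zygote against 83.0 TPM in PB2, 2.99 times as much. Ssbp3, which stabilizes Ldb1, had 10.1 and 21.8 TPM, and its relative Ssbp2 had 45.9 and 47.0 TPM. With the trend on transcript GC content removed, Ldb1 went from a log2 ratio of 1.54 to 0.69 and Ssbp3 from 1.04 to 0.44. Both were then below 2-fold, where Lhx8 stayed at 1.47. Tcf3, which encodes the E proteins that pair with Figla and whose symbol is on the same primer list, was at 4 TPM in the zygote library and at 21.8 TPM in PB2, beside 6.8 and 5.9 TPM for Figla. Tcf3 thus lay below Figla in the zygote and above it in PB2. Of 15 other regulators of oocyte transcription compared, 5 passed 2-fold towards PB2 and 2 towards the zygote, where 18.9% and 8.09% of all genes did, with a median log2 ratio of 0.40 against 0.21 for all genes. The 5 were Tcf3, Ldb1, Ssbp3, Foxo1, a forkhead factor (60.4 and 143.8 TPM), and Ybx2, an mRNA-binding protein of germ cells (23.7 and 60.4 TPM). The 2 were Sub1, a coactivator of RNA polymerase II, with 1107.5 TPM in the zygote against 400.2 TPM in PB2, and Tbpl2, the TBP relative that starts transcription in oocytes, with 33.9 and 14.4 TPM.
Of 17 oocyte genes listed as targets of Figla, Nobox or Lhx8, 3 passed 2-fold towards PB2 and 1 towards the zygote, a share near the background, and the median log2 ratio was -0.07. The 3 were Mos, the kinase that holds the egg in metaphase (62.7 TPM in the zygote against 310.1 TPM in PB2), the secreted factor Gdf9 (1196.3 and 3298.9 TPM) and the zona protein gene Zp1 (90.9 and 209.3 TPM). The other zona genes had 112.8 and 99.5 TPM (Zp2) and 236.4 and 453.3 TPM (Zp3), and Bmp15, the partner of Gdf9, had 1746.8 and 1637.7 TPM. Oog1, with 515.1 and 239.4 TPM, was the 1 past 2-fold towards the zygote, and 9 of the 17 had a higher value there.

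Of the pluripotency pair, Pou5f1 (ENSMUSG00000024406, chr17:35506018-35510772, plus strand) moved furthest. Its level was 12.2 TPM in the zygote against 80.0 TPM in PB2, and rounding of the deposited values to 1 decimal allows a ratio between 6.53 and 6.59. Its log2 ratio of 2.62 was exceeded by 37 genes. Its rank by level went from 4892 in the zygote to 1712 in PB2. An exon of Pou5f1 overlaps one of the antisense gene Gm19553, which was not analysed here, and whether the counting used strand is not given in the sources used here. Sox2 (chr3:34650405-34652461, plus strand) had 0.60 TPM in the zygote against 1.8 TPM in PB2. That is a ratio of 3, for which rounding allows 2.69 to 3.36, while its log2 ratio with the pseudocount of 1 was 0.81. With a pseudocount of 0.1 it was 1.44, so whether Sox2 counts as 2-fold higher depends on how values near 1 TPM are treated. Sox2 lies within the span of the long noncoding gene Sox2ot, without overlap of their exons. Pou5f1 was 20.3 times as abundant as Sox2 in the zygote and 44.4 times in PB2.
Of 22 other regulators of pluripotency compared, 11 passed 2-fold towards PB2 and 1 towards the zygote, where 18.9% and 8.09% of all genes did. Their median log2 ratio was 0.90. The furthest apart were the cell cycle factor E2f1 (14.7 TPM in the zygote against 88.5 TPM in PB2), the homeobox gene Gbx2 (14.1 and 78.9 TPM), the corepressor Trim28 (24.3 and 91.4 TPM), the RNA-binding protein Lin28a (7.4 and 25.9 TPM), the chromatin remodeler Smarca4 (7.8 and 25.5 TPM) and Thap11 (62.3 and 188.6 TPM). Esrrb, a nuclear receptor of the pluripotency network, had 9.8 and 11 TPM, and Zfp143, the 1 past 2-fold towards the zygote, had 33.1 and 15.4 TPM. Nanog was not analysed here. The median transcript of this list had a GC content of 54.5%, where that of all genes had 49.1%. Once the GC trend was taken out, 3 of 22 passed 2-fold towards PB2, where 9.08% of all genes did.
The Pou and Sox families had 6 further genes to compare, each with a higher value in PB2 (median log2 ratio 0.81). Sox8 (12.1 TPM in the zygote against 53.3 TPM in PB2) and Pou2f2 (2.8 and 7.0 TPM) passed 2-fold, and 0 of 6 did so towards the zygote, beside 18.9% and 8.09% of all genes.

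Nfya and Nr5a2, known for their parts in genome activation, did not follow Pou5f1. Nfya (ENSMUSG00000023994, chr17:48386885-48409906, minus strand) had 37.0 TPM in the zygote against 20.1 TPM in PB2, a zygote value 1.84 times that of PB2. Its log2 ratio was -0.85, lower than that of 89.3% of the genes compared. It passed 2-fold towards the zygote at -1.06 with the ratios centred, at -1.19 with the GC trend removed and at -1.20 with the length trend removed. NF-Y is a trimer, and its histone-fold subunits were not displaced alike. Nfyb had 23.6 TPM in the zygote against 11.8 TPM in PB2, and Nfyc had 97.6 and 112.8 TPM. Nfya and Nfyb therefore kept near the same proportion, 1.57 in the zygote and 1.70 in PB2, while Nfyc went from 2.64 to 5.61 times the level of Nfya.
Nr5a2 had 7.0 TPM in the zygote against 8.4 TPM in PB2, with a log2 ratio of 0.23, next to the median of all genes. Removal of the length trend brought it to -0.12, so no direction can be given for Nr5a2. Pou5f1 was 1.74 times as abundant as Nr5a2 in the zygote and 9.52 times in PB2. Of 27 other nuclear receptors and coregulators compared, 7 passed 2-fold towards PB2 and 1 towards the zygote, beside 18.9% and 8.09% of all genes, with a median log2 ratio of 0.52. Nr1h2, an oxysterol receptor, had 5.9 TPM in the zygote against 25.6 TPM in PB2, the retinoic acid receptor Rara had 2.2 and 7.3 TPM, and the thyroid hormone receptor Thra had 2.4 and 7.5 TPM. Nr4a2 (0.8 and 3.2 TPM), Esrrg (8.6 and 18.6 TPM) and Ppard (3.2 and 7.4 TPM) also passed, the last exactly at the threshold. Rarb, the 1 past 2-fold towards the zygote, had 3.2 and 0.7 TPM.
Of 23 maternal regulators of genome activation compared, Nfyb and Nfyc among them, 6 passed 2-fold towards PB2 and 1 towards the zygote, beside 18.9% and 8.09% of all genes, with a median log2 ratio of 0.31. The 6 were the heat shock factor Hsf1 (86.5 TPM in the zygote against 410.1 TPM in PB2), the NF-kB subunit Rela (16.8 and 71.9 TPM), Yap1 (45.4 and 144.3 TPM), Elk4 (17.6 and 50.4 TPM), the chromatin organizer Ctcf (55.9 and 150.6 TPM) and the E-box factor Usf2 (8.5 and 23.4 TPM). Dppa3, which shields the maternal genome from demethylation, was the 1 past 2-fold towards the zygote, with a log2 ratio of -1.48. In all, 8 of the 23 had a higher value in the zygote.

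Stat3 (ENSMUSG00000004040, chr11:100885098-100939540, minus strand) had 14.4 TPM in the zygote against 49.7 TPM in PB2. The log2 ratio of 1.72 was exceeded by 505 genes. An exon of Stat3 overlaps one of Stat5a on the other strand, and Stat5a itself had 5.1 and 7.9 TPM. Stat6 had 43.7 TPM in the zygote against 49.4 TPM in PB2, so Stat3 stood at 0.33 of the Stat6 level in the zygote and at 1.01 of it in PB2.
The route to Stat3 was measured from receptor to inhibitor. Of the receptor chains, Il6st, the shared subunit gp130, had 10.5 TPM in the zygote against 21.6 TPM in PB2, and Lifr, the LIF receptor, had 0.60 and 1.1 TPM. The kinases Jak1 (92.7 and 76.4 TPM) and Jak2 (112.1 and 83.3 TPM) had lower values in PB2. Their relative Tyk2 had 2.0 and 6.5 TPM. Among the inhibitors, Socs1 had 27.6 and 113.1 TPM, Socs4 7.6 and 18.9 TPM, Socs6 19.3 and 44.8 TPM and Socs7 11.4 and 47.3 TPM. By contrast Socs3, the inhibitor that acts on gp130, had 1.6 and 0.90 TPM. The phosphatases Ptpn6 (3.2 and 13.6 TPM) and Ptpn1 (1.6 and 5.8 TPM), the SUMO ligase Pias4 (29.6 and 83.3 TPM) and the adaptor Sh2b3 (2.7 and 10.5 TPM) were higher in PB2 as well. The phosphatase Ptpn2, the most abundant of the list in the zygote, had 381.6 TPM there, 1.53 times its level in PB2, and Socs5 had 8.5 and 5.5 TPM. In all, 9 of 30 Jak-STAT components compared passed 2-fold towards PB2 and 1 towards the zygote, beside 18.9% and 8.09% of all genes, with a median log2 ratio of 0.54. Stat3 and Socs1 kept a like proportion, 0.52 in the zygote and 0.44 in PB2.

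**Figure D3:**
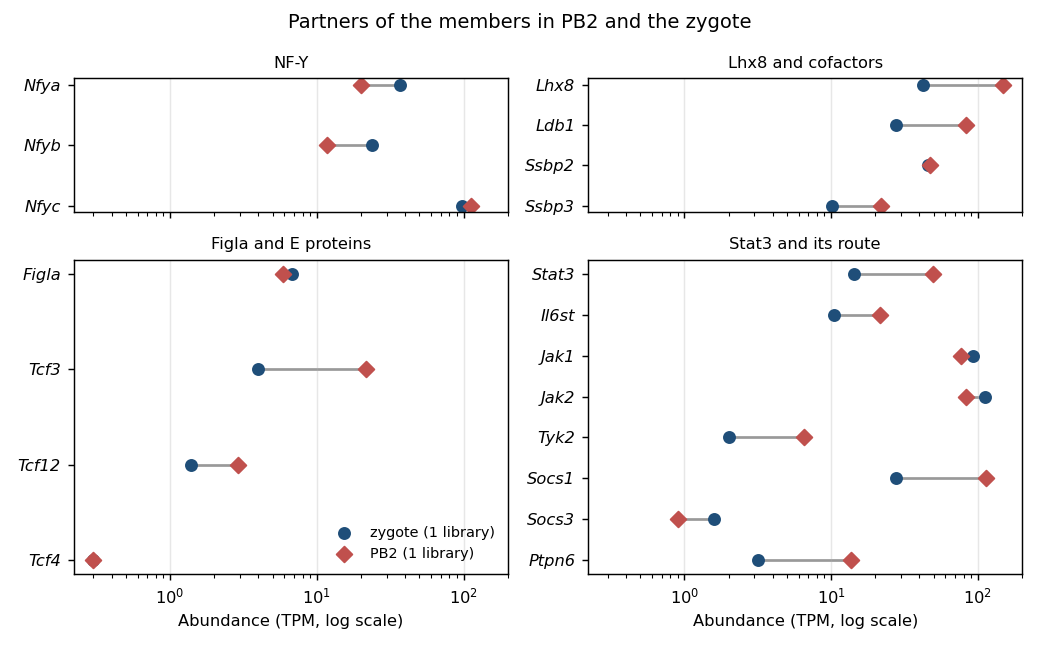
Abundance in TPM (log axis) of Nfya, Lhx8, Figla and Stat3 with genes that act with them, in the zygote library (circles) and the PB2 library (diamonds); each point is 1 library. Nfya and Nfyb lie to the left in PB2 while Nfyc hardly moves, and Ldb1 and Lhx8 lie to the right. Tcf3 passes from 4 to 21.8 TPM while Figla goes from 6.8 to 5.9 TPM.

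**Figure D4:**
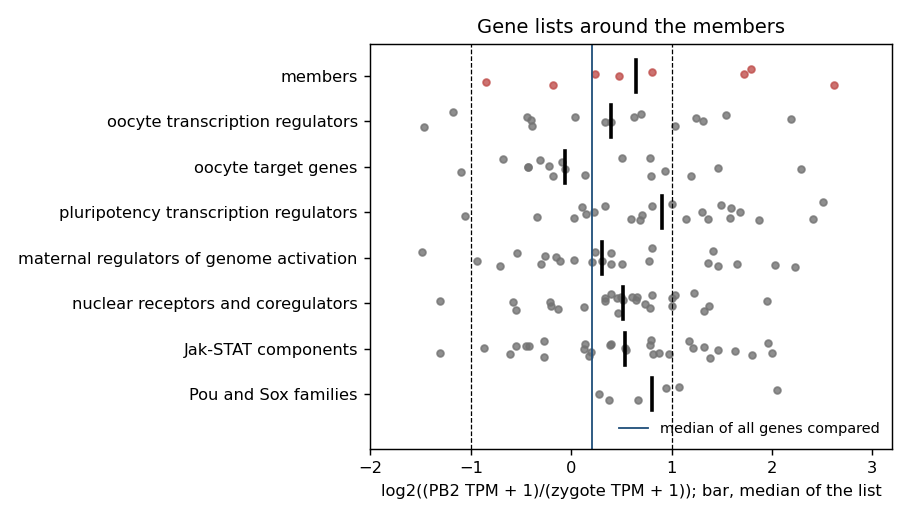
log2 ratio of each gene compared, by gene list, with the 8 factors on top; black bars are medians, the blue line is the median of all genes, 0.21, and dashed lines mark 2-fold. The list of pluripotency regulators has the highest median, 0.90, and the list of oocyte target genes the lowest, -0.07.

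What the factors share beyond their function was read from GENCODE M21. Their longest coding transcripts ran from 759 nt (Figla, 3 exons) to 6042 nt (Stat3, 24 exons), and the gene of Sox2 has 1 exon. Their transcript GC content ran from 43.2% for Nr5a2 to 57.6% for Pou5f1, with a median of 51.6% against 49.1% over all genes. Of the genes compared, 10606 had a coding transcript. Across those of them with a value above 0 in both libraries, Spearman's rho between GC content and log2 ratio was 0.44. Across the 8 factors it was 0.33, a description of points that share both libraries. Pou5f1 lay in the tenth of genes highest in GC, where the median log2 ratio was 0.93. With the trend on GC content removed, a step that also centres the ratios, the log2 ratios were 1.78 for Pou5f1, 1.47 for Lhx8 and 1.26 for Stat3, each still past 2-fold. The value of Nobox went to 0.01 and that of Sox2 to 0.49, while Nr5a2, the lowest in GC, went up to 0.39. Figla went to -0.63. Past 2-fold towards PB2 were then 2 of 15 oocyte regulators, 1 of 17 oocyte targets and 2 of 27 nuclear receptors and coregulators. So were 5 of 30 Jak-STAT components, 5 of 23 regulators of genome activation and 2 of 6 further Pou and Sox genes. Of all genes 9.08% passed. The Jak-STAT genes were Socs1, Socs4, Socs6, Socs7 and Ptpn6, and the receptors were Esrrg and Nr4a2. Those of the Pou and Sox families were Sox8 and Pou2f1 (6.2 and 12.9 TPM), while Pou2f2 went to 0.56. Tyk2, Pias4, Ptpn1, Sh2b3, Nr1h2, Rara, Thra and Ppard no longer passed. The part of GC content in the values of these libraries was not tested. No other GENCODE transcript matched a factor's transcript over at least 200 nt at 90% identity or more.

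**Figure D5:**
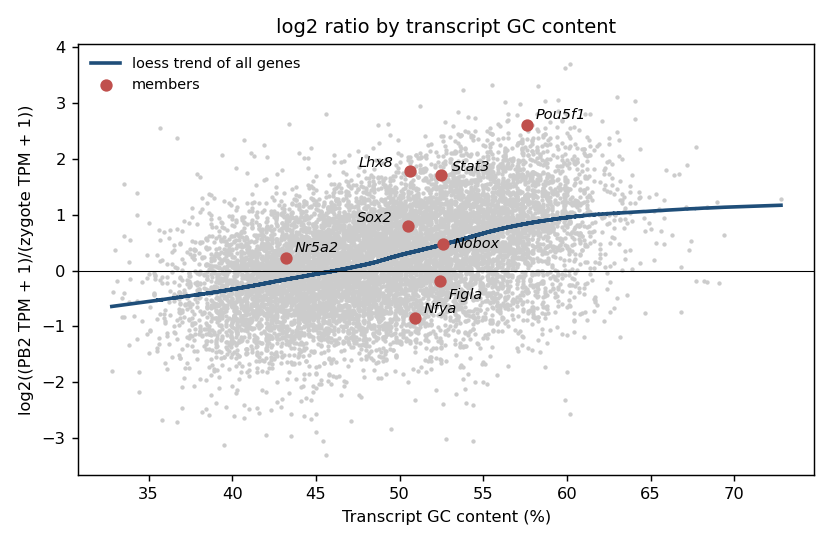
log2 ratio against GC content of the longest coding transcript (percent) for 10606 genes (grey), with the loess trend (blue) and the 8 factors (red). Pou5f1, Lhx8 and Stat3 lie above the trend, Nobox lies on it, and Nfya and Figla lie below it.

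The gene of the table closest to a factor was taken by the distance between log2(TPM + 1) values over the 2 libraries, a measure that says nothing of shared function. For Pou5f1 it was 1700017B05Rik, with 12.8 TPM in the zygote against 74.4 TPM in PB2, at a distance of 0.12. For Lhx8 it was Zcchc3 (39.8 and 151.3 TPM) and for Stat3 it was Hars (14.4 and 50.2 TPM). Nobox lay next to Cdk20 (224.8 and 313.2 TPM), Nfya next to Gtf2h2 (37.3 and 20.8 TPM) and Nr5a2 next to Ppp1r21 (6.9 and 8.3 TPM). Clcn4 had the same 2 values as Sox2. Of these factors Pou5f1 had the largest distance to its closest gene, and Sox2, with a distance of 0, the smallest.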

How the data were processed

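The libraries of PB2 and zygotes, 1 each, were made from pooled samples with a full-length single-cell mRNA amplification kit. Per the labels and the supplementary methods, the authors aligned reads with HISAT2 2.0.4 and counted them per gene with HTSeq 0.6.1p1. The authors named DESeq2 1.18.1 for their normalization. The submitters' notes name both OryCun2.0, a rabbit assembly, and GRCm38, and the identifiers are those of mouse. The authors deposited TPM values with 1 decimal, and how these were computed is not stated. Of the value columns, 0 were without a sample. The genes of the table add up to 92.7% (zygote) and 89.8% (PB2) of the 1000000 TPM of a complete library, so part of each library was not analysed here.

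Genes with at least 1 TPM in either library were compared by log2 ratio with a pseudocount of 1, and no count model, interval or test was used. Transcript length and GC content came from GENCODE M21 by gene identifier, and loess trends used a span of 0.3. The 8 factors, the lists and the rule for named genes were chosen with earlier results of these data known. Named from each list were at most 6 genes with at least 5 TPM and a 2-fold difference, besides fixed partners and targets. Ssbp3, Usf2, Tyk2, Stat5a, Stat6, Zfp143, Ssbp2, Cyp19a1 and the proportions between genes were chosen with their values in view. So were Ptpn2, Socs4, Socs5, Socs6, Nr4a2, Rarb and Pou2f1. The gene closest in level to Figla is not reported here. The functions were tested on simulated data. Alternatives were 2 other pseudocounts, 2 other fold thresholds, 2 other filters, 3 scalings and a trend removed on GC content or length. Python 3.11.15, pandas 2.3.3 and statsmodels 0.14.6 were used.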

Additional observations from a re-analysis of the deposited data

How the results depend on the processing

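No paired analysis was possible because neither group has a replicate. Changes of up to 1.5 times in a count, and of up to 0.5 in a log2 ratio or median, were treated as no change. Of 341 values under 11 alternatives 281 stayed within these limits and 60 moved. No sign changed for a factor past 2-fold, 0 list medians moved by more than these limits, and the cause of the other changes was not tested. With the GC trend removed, the median went from 0.90 to 0.46 for pluripotency regulators and from 0.81 to 0.34 for further Pou and Sox genes. That of oocyte targets went from -0.07 to 0.11, and that of all genes from 0.21 to 0.01. Pou5f1, Lhx8 and Stat3 stayed at least 2-fold higher in PB2 at each pseudocount, filter, scaling and trend removal tried, with log2 ratios of 1.78 to 2.71, 1.47 to 1.81 and 1.26 to 1.79. At 4-fold only Pou5f1, 1 of 8, passed. Sox2 had a log2 ratio of 1.44 and 1.57 at pseudocounts of 0.1 and 0.01. The log2 ratios of Figla and Nr5a2 changed sign with the length trend removed. Nfya, 1 of 8, passed towards the zygote at 1.5-fold, after centring and after removal of the GC or length trend.

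By construction the fold thresholds moved most counts. At 1.5-fold 3651 genes passed in PB2, 34.3% of those compared, and 1939 in the zygote, 18.2%. The lists then had 6 oocyte targets, 13 nuclear receptors, 14 Jak-STAT components and 4 Pou or Sox genes in PB2, and 2 oocyte targets, 3 genome activation genes and 3 Jak-STAT components in the zygote. At 4-fold 264 and 74 genes passed, 2.48% and 0.695% of those compared. In PB2 the lists had 1 oocyte regulator, 1 oocyte target, 2 pluripotency regulators, 2 genome activation genes and 1 Pou or Sox gene. The PB2 count was 0 for nuclear receptors and for Jak-STAT components, and the zygote count was 0 for each list. With the filter at 5 TPM 0 nuclear receptors and 0 Jak-STAT components passed in the zygote, beside 8.39% of all genes. Pseudocounts of 0.1 and 0.01 gave 2 genome activation genes in the zygote, beside 10.4% of all genes. Scaling the zygote to a median ratio of 1 also gave 2, beside 9.22%, and left 4 nuclear receptors in PB2, beside 16.7%. Centring gave 4 nuclear receptors and 1 Pou or Sox gene in PB2, and 2 genome activation genes and 2 Jak-STAT components in the zygote. After centring 13.0% of all genes passed in PB2 and 12.1% in the zygote. With mitochondrial genes and the top 50 genes by level left out, the zygote had 0 genome activation genes and 2 Jak-STAT components. There 9.09% of all genes passed. Dppa3 was among the genes left out, so that 0 was set by the step.

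With the GC trend removed 963 genes passed in PB2 and 1162 in the zygote, 9.08% and 11% of the 10606 compared. In PB2 the lists had 2 of 15 oocyte regulators, 1 of 17 oocyte targets and 3 of 22 pluripotency regulators. They also had 2 of 27 nuclear receptors and 5 of 30 Jak-STAT components there. In the zygote they had 0 oocyte targets, 0 pluripotency regulators, 2 of 27 nuclear receptors and 3 of 30 Jak-STAT components. None of these lists passed in the zygote at a higher share than all genes did. With the length trend removed 1283 and 1242 genes passed, 12.1% and 11.7% of those compared. The lists then had 3 oocyte regulators and 3 nuclear receptors in PB2. They had 2 oocyte targets, 2 genome activation genes and 2 Jak-STAT components in the zygote. Depth is unknown, so counting error limits Sox2, Figla and Nr5a2 by an amount that cannot be given.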
